A study of Mus musculus with 12 samples.

Results

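Expression of 10 genes of the actin cytoskeleton and of the smooth-muscle-type programme controlled by serum response factor (SRF) was followed in mouse embryonic stem (mES) cells losing the chromatin remodeller BRG1. They were the 3 actin genes Actb, Actg1 and Acta2, the actin-binding genes Tpm1, Cnn1, Cnn2 and Tagln, the myosin light chain gene Myl9, the adhesion gene Vcl and the intermediate filament gene Des. They were taken by symbol from a table of 24421 genes, in which all 10 were found. Actb and Des had been singled out because they fall with dose in these libraries. Their values are therefore given as a description without a test, and the other 8 were tested. The set of 10 was chosen with earlier results of these data known. Counts of calls among the 8 are thus a description and no independent support for a fall.

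The cells were a B6 mES line, made from C57BL/6J embryos and called 2i+LIF ESC in the labels. They were grown in 2i+LIF, in a medium that also held fetal bovine serum. Their genotype was Brg1 dTag knock in. This knock-in places a degron on BRG1, so that the small molecule dTAG13 sends the protein to the proteasome. The knock-in line was picked from colonies grown from single cells. Every group carried it, the control included, so that no group had untagged BRG1. The groups were cells without dTAG13 (0 nM) and cells given 0.3, 1, 3, 10 or 100 nM dTAG13 for 24 h, each with 2 libraries of total RNA, 12 in all. The labels number the libraries of a group as replicates, and the study describes its expression data as coming from independent experiments, without saying which library belongs to which. The labels' library numbers fall in 2 runs, with 0, 1, 10 and 100 nM in one and 0.3 and 3 nM in the other. The run and the dose cannot be told apart where 0.3 or 3 nM is set against 0 nM.

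Actin exists as free monomers and as filaments. SRF binds a short promoter element, the CArG box, with its cofactors of the MRTF family, which are held by free actin monomers and released when monomers are taken up into filaments. Many genes that encode actin and the proteins that bind it are targets of this circuit. In smooth muscle the cofactor myocardin drives Acta2, Tagln and Cnn1 with SRF. In mES cells the nonmuscle actins of Actb and Actg1 form the bulk of the cytoskeleton, and smooth muscle contractile genes are usually low.

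RefSeq promoter windows on GRCm38.p6, each from 250 bases before to 50 after a start site, were at hand for 8 of the 10 genes (Actb and Tagln had none). A full CArG box was found in 4 of them (Actg1, Cnn2, Vcl and Myl9), against 1.63% of the 32851 windows of the same length. The genes were chosen as actin and SRF target genes, so this contrast is a description and no test. Both strands were covered, since the element reads the same on each. The windows of Des, Cnn1, Tpm1 and Acta2 held no full box. Acta2 and Tpm1 each held 2 stretches that miss the element by 1 base. A full box or such a near match was found in 21.1% of all windows. The 4 boxes, and the near match of Acta2 farther from its start, are shown since they let genes that fell be set beside genes that did not. Capitals mark the box or the near match.
Cnn2, which fell the most among the tested genes (chr10:79988519-79988578, plus strand, box beginning 56 bases before the start): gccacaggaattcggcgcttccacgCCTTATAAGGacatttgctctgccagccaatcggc
Vcl, which fell slightly (chr14:20929148-20929205, plus strand, box 227 bases before the start): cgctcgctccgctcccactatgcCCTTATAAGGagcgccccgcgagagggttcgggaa
Actg1, which was higher at the top dose (chr11:120348551-120348610, minus strand, box 90 bases before the start): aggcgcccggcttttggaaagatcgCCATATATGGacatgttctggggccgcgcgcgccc
Myl9, for which no change was detected (chr2:156775278-156775337, plus strand, box 161 bases before the start): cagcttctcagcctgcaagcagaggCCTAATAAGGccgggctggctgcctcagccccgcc
Acta2, which was near the detection limit (chr19:34255423-34255482, minus strand, near match 84 bases before the start): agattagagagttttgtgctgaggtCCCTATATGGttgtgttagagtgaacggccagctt
Cnn2 and Vcl had the same 10 bases in the box. The genes with a box included 2 that were lower at 100 nM, 1 that was higher and 1 without a detected change. Tpm1 fell with no full box but 2 near matches in its window. Of these calls, those of Vcl and Actg1 were lost with another test, DESeq2 (adjusted p = 0.0544 and 0.136), and that of Cnn2 was kept. A match of letters does not show binding, and no binding data were used here. Whether a box bears on the change of a gene was not tested.

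Expression is given as RPKM, which scales the count of read pairs by exon length and by a library size adjusted with TMM factors. Library totals ran from 4663484 to 6375582 counts, and Rn45s, a ribosomal RNA locus, took 10.5% to 19.4% of them. Smarca4, the gene of BRG1, is no check of the labels, since the protein and not its transcript is degraded (63.9 ± 0.503 RPKM at 0 nM and 71.3 ± 0.0941 at 100 nM, SD, n = 2). The labelled cell type was matched by its markers: all 8 mES cell genes listed (Pou5f1, Sox2, Nanog, Zfp42, Esrrb, Klf4, Tfcp2l1 and Dppa5a) passed the filter of a mean of 1 RPKM, and they summed to 2060 to 2081 RPKM at 0 nM and 1829 to 1872 RPKM at 100 nM. Within this sum single genes went both ways: at 100 nM Nanog and Klf4 were higher (log2 fold change 0.52 and 0.28) and Pou5f1, Esrrb, Tfcp2l1 and Dppa5a lower (-0.17, -0.17, -0.64 and -0.48; adjusted p = 0.0433 or less for all 6, edgeR). Of 6 further smooth muscle markers (Myh11, Myocd, Smtn, Lmod1, Actg2 and Synpo2) 1 passed the filter, and their sum was 4.06 to 6.38 RPKM over the 12 libraries. The 1 was Smtn, called lower at 10 nM (log2 fold change -0.59) and not at 100 nM (-0.42, adjusted p = 0.102, edgeR). The sum of 9 striated and cardiac muscle markers was 1.96 to 2.04 RPKM at 0 nM and 3.93 to 4.52 RPKM at 100 nM, and that of 8 fibroblast markers was 3.45 to 4.43 and 4.06 to 5.38 RPKM. The 6 primitive endoderm markers summed to 1.69 to 2.21 and 2.05 to 2.19 RPKM, and the 6 trophectoderm markers to 25.3 to 26.1 and 23.1 to 24.4 RPKM. Of the trophectoderm markers Eomes was higher at 100 nM (log2 fold change 0.33, adjusted p = 0.0465, edgeR) and the keratin gene Krt8 lower (-2.02, adjusted p = 7.2e-07), while Cdx2 had 4 and 10 counts at 0 nM and 4.57 to 4.94 RPKM at 100 nM, through which alone it passed the filter. No marker was at 0 in every library. The part of these markers in the results below was not tested. The libraries are bulk RNA, in which fewer cells expressing a gene and less RNA per cell cannot be told apart.

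**Figure D1:**
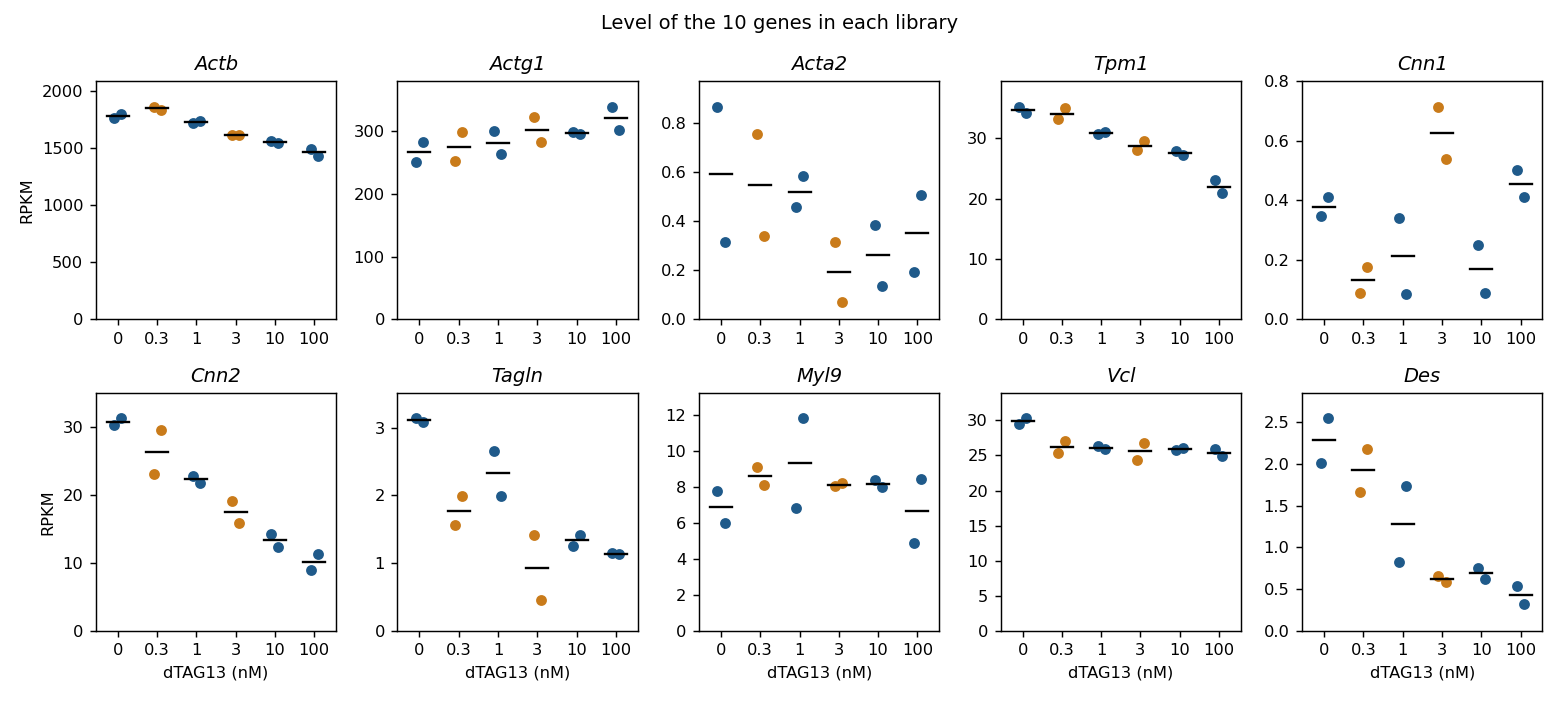
RPKM (vertical axes, from 0) of each of the 10 genes by dTAG13 dose (horizontal axes, nM). Each point is a library, bars are means of 2, and orange marks the 0.3 and 3 nM libraries of the other run of library numbers. Cnn2 and Des go down to 33.0% and 18.8% of their 0 nM means at 100 nM, Actb to 82.1% and Tpm1 to 63.2%, while the points of Acta2 and Cnn1 rest on 13 counts or fewer.

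Actb, which encodes the major nonmuscle actin, stood lower at each dose from 1 nM on (chr5:142903118-142906754 on mm10, minus strand). It ranked 32 of all 24421 genes by mean RPKM. Its 2 libraries stood at 1760 and 1801 RPKM without dTAG13, 1864 and 1833 with 0.3 nM, 1722 and 1737 with 1 nM, 1615 and 1618 with 3 nM, 1562 and 1542 with 10 nM, and 1496 and 1429 with 100 nM. From 1 nM on both libraries lay below both 0 nM libraries, and at 0.3 nM both lay above them. The mean was 104%, 97.1%, 90.8%, 87.1% and 82.1% of the 0 nM mean at 0.3, 1, 3, 10 and 100 nM. The fitted log2 fold change at 100 nM was -0.28 (standard error 0.044), or -0.37 with TMM factors taken over all genes and -0.24 without normalization factors. These values rest on 15258 to 21218 counts per library.

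Actg1, the second nonmuscle actin gene, was higher at 100 nM (chr11:120345690-120348484, minus strand). It stood at 251 and 283 RPKM without dTAG13, 252 and 299 with 0.3 nM, 300.2 and 264 with 1 nM, 322 and 283 with 3 nM, 299 and 297 with 10 nM, and 340 and 302 with 100 nM. The 10 and 100 nM libraries lay above both 0 nM libraries and those of the other doses overlapped them. Its log2 fold change at 100 nM was 0.26 (standard error 0.079, adjusted p = 0.0158, quasi-likelihood test of edgeR, Benjamini-Hochberg adjusted), and at 0.3, 1, 3 and 10 nM it was 0.05, 0.08, 0.18 and 0.16 (adjusted p = 0.954, 0.742, 0.181 and 0.192 in edgeR). The call at 100 nM was lost with DESeq2 (adjusted p = 0.136), with TMM factors taken over all genes (0.0933), without the first 0 nM library (0.227) and without the first 100 nM library (0.257), and the fold change was then 0.18 to 0.27. Actg1 is also uncertain by its sequence: 54.5% of the 75-base windows of its longest-coding GENCODE transcript occur in the transcript of another annotated gene, mainly of processed pseudogenes such as Gm12715, while 2.60% of the windows of Actb do. Pairs that mapped to several places had been left out of the counts, so that the level of Actg1 may be understated against that of Actb.

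The coding sequences of the 3 actin genes are close relatives. That of Actb shares 88.7% of its aligned bases with that of Actg1 and 82.8% with that of Acta2, the smooth muscle actin. The RPKM of Actb was 6.69 ± 0.469 times that of Actg1 at 0 nM, 6.76 ± 0.881 with 0.3 nM, 6.16 ± 0.597 with 1 nM, 5.37 ± 0.501 with 3 nM, 5.21 ± 0.0226 with 10 nM and 4.57 ± 0.236 with 100 nM (SD, n = 2). The ratio was 7.03 and 6.36 in the 0 nM libraries and 4.40 and 4.74 in the 100 nM libraries, which did not overlap. Since the ratio holds Actb, which was chosen for its fall, it is given without a test. Summed over the 6 actin genes, actin RPKM was 2049 ± 51.1 at 0 nM and 1785 ± 74.7 at 100 nM (SD, n = 2), 87.1% of the 0 nM mean, and the share of Actg1 in that sum went from 13.01% to 17.9%.

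**Figure D2:**
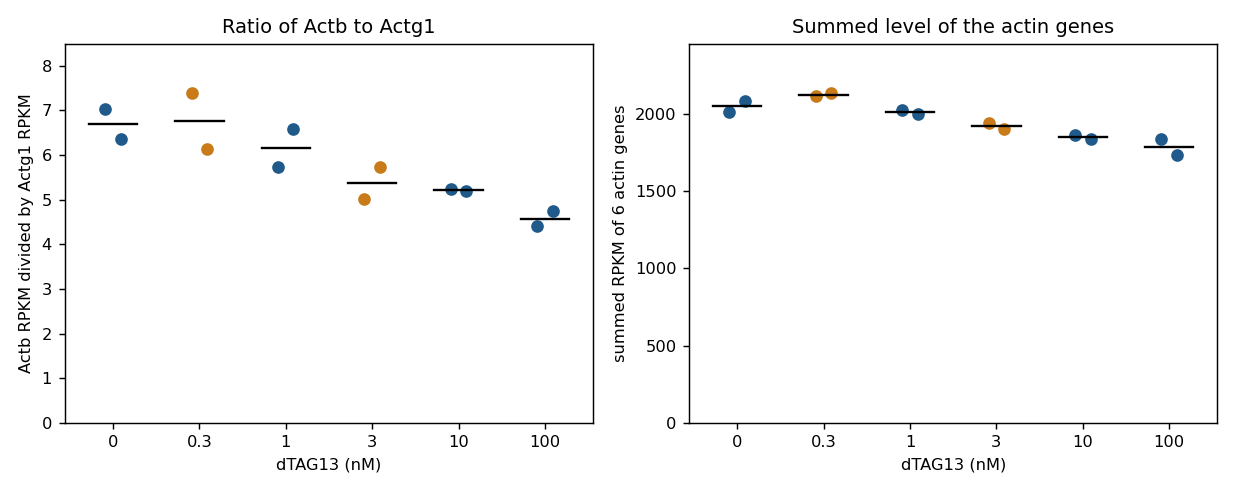
Left, RPKM of Actb divided by that of Actg1, and right, the summed RPKM of the 6 actin genes (Actb, Actg1, Acta2, Acta1, Actc1 and Actg2), by dTAG13 dose (nM). Each point is a library, bars are means of 2, and orange marks the other run of library numbers. The ratio goes from a mean of 6.69 at 0 nM to 4.57 at 100 nM, and the sum from 2049 to 1785 RPKM.

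Acta2 was close to the detection limit (chr19:34240336-34255373, minus strand). Its counts were 13 and 5 without dTAG13, 11 and 5 with 0.3 nM, 7 and 9 with 1 nM, 4 and 1 with 3 nM, 6 and 2 with 10 nM, and 3 and 8 with 100 nM, or 0.592 ± 0.390 RPKM without dTAG13 and 0.351 ± 0.223 with 100 nM (SD, n = 2). The 0 and 100 nM libraries overlapped. The log2 fold change at 100 nM was -0.73 with a standard error of 0.69, in a fit over all genes with a count (adjusted p = 0.551, edgeR), and it changed sign to 0.15 without the first 0 nM library. The muscle and enteric actin genes Acta1, Actc1 and Actg2 had 0 to 13 counts per library and were not tested.

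Tpm1, a tropomyosin that lies along actin filaments, fell with dose (chr9:67022593-67049213, minus strand). It stood at 35.3 and 34.3 RPKM without dTAG13, 33.2 and 35.0 with 0.3 nM, 30.8 and 31.1 with 1 nM, 28.04 and 29.6 with 3 nM, 27.9 and 27.2 with 10 nM, and 23.0 and 20.9 with 100 nM. From 1 nM on every library lay below both 0 nM libraries. The top dose gave a log2 fold change of -0.66 with a standard error of 0.079 (adjusted p = 4.8e-07, edgeR), a call kept in all 23 alternatives to the fit with log2 fold changes from -0.74 to -0.60. It was -0.27 with 3 nM and -0.34 with 10 nM (adjusted p = 0.0275 and 0.00306 in edgeR). The call at 3 nM was lost with DESeq2 (adjusted p = 0.103), without normalization factors (0.195), in a fit of the 4 libraries alone (0.0556) and without either 0 nM library (0.146 and 0.0801) or either 3 nM library (0.182 and 0.0569), and that at 10 nM without normalization factors (0.0524).

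Cnn2, a calponin found outside muscle, fell stepwise with dose (chr10:79988600-79995400, plus strand). It stood at 30.3 and 31.3 RPKM without dTAG13, 23.2 and 29.5 with 0.3 nM, 22.9 and 21.8 with 1 nM, 19.1 and 15.9 with 3 nM, 14.3 and 12.4 with 10 nM, and 9.01 and 11.3 with 100 nM. Every library with dTAG13 lay below both 0 nM libraries, and the 10 and 100 nM libraries lay below those of all lower doses. The mean was 85.6%, 72.5%, 56.8%, 43.4% and 33.0% of that at 0 nM from 0.3 to 100 nM. The log2 fold change was -0.22, -0.47, -0.82, -1.20 and -1.60, with an adjusted p of 0.716, 0.0449, 0.000135, 2.7e-07 and 2.0e-09 in edgeR's quasi-likelihood test. At 100 nM the call was kept in all 23 alternatives, with log2 fold changes from -1.77 to -1.45. The call at 1 nM was lost with DESeq2 (adjusted p = 0.198), without normalization factors (0.0903) and without any one of the 0 nM libraries (0.163 and 0.242), the 1 nM libraries (0.179 and 0.305) or the 100 nM libraries (0.0545 and 0.0547).

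Cnn1, the smooth muscle calponin, was at the detection limit (chr9:22099253-22109221, plus strand). Its counts were 4 and 5 without dTAG13, 1 and 2 with 0.3 nM, 4 and 1 with 1 nM, 7 and 6 with 3 nM, 3 and 1 with 10 nM, and 6 and 5 with 100 nM. The log2 fold change at 100 nM was 0.26 with a standard error of 0.86 (adjusted p = 0.905 in edgeR's fit over all genes with a count), and a change was not detectable at this depth at any dose. Cnn2 had 97 to 343 counts per library where Cnn1 had 1 to 7.

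Tagln encodes transgelin, an early smooth muscle marker related to the calponins (chr9:45929628-45936058, minus strand). Its counts were 29 and 30 without dTAG13, 14 and 18 with 0.3 nM, 25 and 19 with 1 nM, 11 and 4 with 3 nM, 12 and 13 with 10 nM, and 11 with 100 nM in both libraries. Every library with dTAG13 lay below the 0 nM libraries, which stood at 3.14 and 3.08 RPKM, but the order of the doses was uneven, with means of 57.1%, 74.7%, 29.9%, 42.9% and 36.7% of the 0 nM mean from 0.3 to 100 nM. The log2 fold change with 3, 10 and 100 nM was -1.77, -1.21 and -1.44 (adjusted p = 0.0103, 0.0337 and 0.0109, edgeR), and -0.80 and -0.42 at 0.3 and 1 nM (adjusted p = 0.644 and 0.683). The call at 100 nM was lost with DESeq2 (0.06), without the first 0 nM library (0.0506) and without either 100 nM library (0.0664 and 0.0691). The call at 3 nM was lost with DESeq2 (0.0516) and without either 0 nM library (0.054 and 0.052) or the second 3 nM library (0.201, log2 fold change -1.14). The call at 10 nM was lost without normalization factors (0.0543) and without either 0 nM library (0.116 and 0.113) or either 10 nM library (0.151 and 0.104), and DESeq2 gave Tagln no adjusted p at this dose. The last 95 exon bases of Tagln overlap Pcsk7 on the other strand, which was not told apart in counting, and Pcsk7 stood at 5.01 ± 0.333 RPKM at 0 nM and 4.14 ± 0.792 at 100 nM (SD, n = 2; log2 fold change -0.28, adjusted p = 0.296, edgeR).

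Myl9, a regulatory light chain of smooth muscle and nonmuscle myosin, showed no detected change (chr2:156775464-156781657, plus strand). It stood at 7.77 and 6.01 RPKM without dTAG13, 9.12 and 8.10 with 0.3 nM, 6.84 and 11.8 with 1 nM, 8.06 and 8.21 with 3 nM, 8.40 and 7.98 with 10 nM, and 4.89 and 8.45 with 100 nM. The 100 nM libraries enclosed those at 0 nM. The log2 fold change at 100 nM was -0.04 with a standard error of 0.29 (adjusted p = 0.944, edgeR), and its sign changed in 3 alternatives. With 32 to 77 counts per library, even changes larger than this error could be missed. For Myl9 with 1 nM, 0.44 against an error of 0.27 was not called (adjusted p = 0.513, edgeR).

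Vcl encodes vinculin, which links actin filaments to adhesion sites (chr14:20929433-21033673, plus strand). It stood at 29.4 and 30.3 RPKM without dTAG13, 25.4 and 27.1 with 0.3 nM, 26.3 and 25.9 with 1 nM, 24.4 and 26.8 with 3 nM, 25.7 and 26.0 with 10 nM, and 25.9 and 24.9 with 100 nM. All 10 libraries with dTAG13 lay below both 0 nM libraries, and those of the doses overlapped each other, with means of 85.0% to 87.9% of the 0 nM mean. The log2 fold change was -0.19, -0.19, -0.22, -0.21 and -0.23 from 0.3 to 100 nM, with an adjusted p of 0.518, 0.186, 0.0514, 0.0444 and 0.0172 in edgeR. The value at 3 nM passed in 5 alternatives (0.0189 to 0.045). The call at 100 nM was lost with DESeq2 (0.0544), without normalization factors (0.166), without either 0 nM library (0.0502 and 0.115) and without either 100 nM library (0.051 and 0.132). The call at 10 nM was lost in 13 alternatives, among them DESeq2 (0.121) and the omission of either 0 nM library (0.0934 and 0.193), either 10 nM library (0.117 and 0.104), the first 1 nM library (0.0583) or either 100 nM library (0.056 and 0.0554).

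Des encodes desmin, the intermediate filament protein of muscle, and had the lowest relative level at 100 nM of the 10 genes (chr1:75360292-75368579, plus strand). Its counts were 36 and 48 without dTAG13, 29 and 38 with 0.3 nM, 15 and 32 with 1 nM, 10 in both libraries with 3 nM, 14 and 11 with 10 nM, and 10 and 6 with 100 nM. In RPKM it stood at 2.02 and 2.55 without dTAG13, 1.67 and 2.18 with 0.3 nM, 0.823 and 1.74 with 1 nM, 0.662 and 0.580 with 3 nM, 0.755 and 0.620 with 10 nM, and 0.540 and 0.320 with 100 nM. The 0.3 nM libraries overlapped those at 0 nM and all libraries from 1 nM on lay below them, with the 2 libraries at 1 nM far apart. The mean at 100 nM was 18.8% of that at 0 nM, and the fitted log2 fold change was -2.39 (standard error 0.41) and -2.81 without the first 100 nM library. The 3, 10 and 100 nM levels rest on 6 to 14 counts and their order cannot be read. Des passed the filter on low values only through its levels at 0 to 1 nM. The last exon bases of Des overlap Gm15179, on the other strand, which had 0 to 3 counts per library.

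The 8 tested genes were then counted beside all 11378 genes that passed the filter, of which 6 of the 8 were a part (Acta2 and Cnn1 did not pass and were read from the fit over all 23204 genes with a count, in which 13.5% of genes were called at 100 nM). The genes were chosen with earlier results of these data known, so these counts too are a description. At 100 nM 4 of the 8 were lower (Tagln, Cnn2, Tpm1 and Vcl) against 13.3% of all genes tested. Another 1 was higher (Actg1) against 10.1%, and 3 did not pass. With a fold change over 1.5 as well, Tagln, Cnn2 and Tpm1 were lower, against 6.83% of all genes lower and 4.37% higher. Both 100 nM libraries lay below both 0 nM libraries for 4 of the 8 and above them for 2 (Actg1 and Cnn1), against 31.2% and 30.5% of all genes. At 10 nM Tagln, Cnn2, Tpm1 and Vcl were lower (10.1% of all genes, and 7.87% higher), at 3 nM Tagln, Cnn2 and Tpm1 were lower (5.25%, and 4.15% higher), and at 1 nM Cnn2 alone was lower (1.52%, and 0.773% higher). At 0.3 nM 0 of the 8 passed in edgeR or in any of 23 alternatives, among them DESeq2, which gave only Actg1 an adjusted p there, with 2 (Tagln and Vcl) at an unadjusted p under 0.05, where 0.0703% of all genes were lower and 0% higher. Of the 5 genes past the test at 100 nM, the fit without the first 0 nM library, the fit without the first 100 nM library and DESeq2 left 2 (Cnn2 and Tpm1), and the fit without the second 100 nM library left 3.

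**Figure D3:**
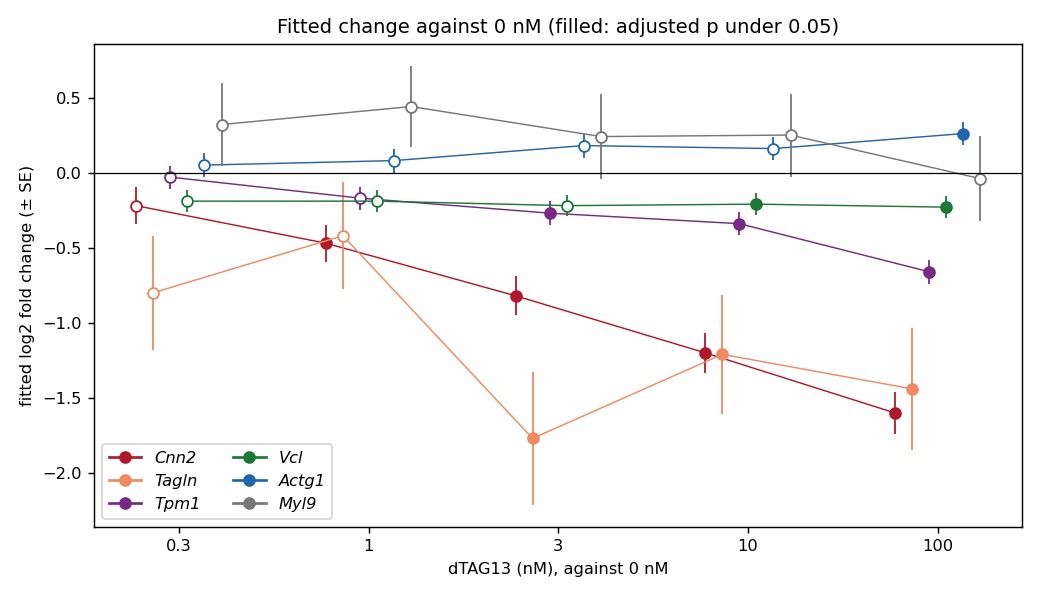
Fitted log2 fold change against 0 nM (vertical axis, bars are standard errors) at each dTAG13 dose (horizontal axis, nM) for the 6 tested genes that passed the filter. Points are set side by side within a dose, filled points passed an adjusted p of 0.05 in edgeR, and lines join the doses of a gene. Cnn2 goes from -0.22 at 0.3 nM to -1.60 at 100 nM and Tpm1 from -0.03 to -0.66, while Vcl stays between -0.19 and -0.23.

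Comparisons between doses leave out the control libraries, and those between 1, 10 and 100 nM, like those between 0.3 and 3 nM, stay within a run of library numbers. From 1 to 10 nM Cnn2 fell further (log2 fold change -0.74, standard error 0.14, adjusted p = 0.00104, edgeR), the only one of the 8 to pass, where 3.72% of all genes were lower and 2.55% higher. From 10 to 100 nM Tpm1 fell (-0.33, standard error 0.081, adjusted p = 0.0264), where 1.76% of all genes were lower and 0.615% higher. That call was lost with DESeq2 (0.0722), without normalization factors (0.107), in a fit of the 4 libraries alone (0.103) and without any one of the 4 libraries (0.0641 to 0.358). The further change of Cnn2 in this step was -0.40 (standard error 0.16, adjusted p = 0.263). From 0.3 to 3 nM Cnn2 fell (-0.60, standard error 0.13, adjusted p = 0.00734), where 2.88% of all genes were lower and 2.43% higher, although not without the second 0.3 nM library (0.171) or the second 3 nM library (0.127). Vcl differed by -0.01 from 1 to 10 nM, by -0.03 from 10 to 100 nM and by -0.03 from 0.3 to 3 nM (adjusted p = 0.957, 0.933 and 0.851), each with a standard error of 0.07. Untested, Actb differed by -0.16, -0.09 and -0.19 in the same steps and Des by -0.89, -0.67 and -1.62, with both libraries of the higher dose below both of the lower in each.

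The surrounding pathway was read from 96 further genes in 8 lists of known function, all of which were in the table and 78 of which passed the filter. The lists were chosen with earlier results of these data known. Their counts are therefore a description and no independent support for a fall of the pathway. At 100 nM 26 of the 78 were lower and 6 higher (5 of 77 without Gsn, which passed the filter only through its levels at 100 nM), with a median log2 fold change of -0.13 against 0.00 over all genes tested, and with 13.3% of all genes lower and 10.1% higher. With 10 nM 20 were lower and 3 higher (5 higher without the first 10 nM library), or 25.6% and 3.85%, where 10.1% of all genes were lower and 7.87% higher. With 3 nM 15 were lower (8 without the second 0 nM and 9 without the second 3 nM library) and 2 higher (0 without the first 0 nM library and 1 without either 3 nM library), or 19.2% and 2.56% against 5.25% and 4.15% of all genes. With 1 nM 4 were lower (5.13%, against 1.52% of all genes) and 0 higher (0.773% of all genes). With 0.3 nM 0 passed in edgeR, where 4 lower and 3 higher had an unadjusted p under 0.05, or in any of 23 alternatives, among them DESeq2, which gave 21 of the 78 an adjusted p. The 4 genes at 1 nM were Arpc1b, Actn1, Flna and Plec, and 0 were left without the second 0 nM or the second 1 nM library and 1 without the first of either.

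Relatives of the tropomyosin, calponin, transgelin and myosin genes held the largest share of lower genes. Of 12 tested 9 were lower at 100 nM (Tpm4, Cnn3, Tagln2, Myl6, Myl12b, Myh9, Myh10, Cald1 and Csrp1), with a median log2 fold change of -0.50. That was 75% of the list, where 13.3% of all genes were lower. Cnn3, the third calponin gene, went from 185 ± 9.29 to 106 ± 7.28 RPKM (SD, n = 2; log2 fold change -0.81, adjusted p = 3.4e-10, edgeR). All 3 calponin genes were thus measured, with Cnn2 and Cnn3 lower and Cnn1 too low to tell. Tagln2, a transgelin found outside muscle, fell by 0.62 and Myl12b, a nonmuscle regulatory light chain, by 0.73 on the log2 scale (adjusted p = 1.1e-05 and 0.000246). Myl6, an essential light chain and the most abundant gene of the list, went from 361 ± 12.2 to 275 ± 3.59 RPKM (log2 fold change -0.40, adjusted p = 0.000262, edgeR). Cald1 encodes caldesmon, which binds actin and tropomyosin, and fell by 0.63 (adjusted p = 0.000539).

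Among filament crosslinkers and focal adhesion genes, to which vinculin binds, 7 of 13 tested were lower at 100 nM, with a median of -0.24. That was 53.8% of the list, against 13.3% of all genes. Actn1, an alpha-actinin that bundles filaments, went from 46.4 ± 1.36 to 23.2 ± 0.769 RPKM (SD, n = 2; log2 fold change -1.0, adjusted p = 4.6e-10, edgeR). Flna, a filamin that crosslinks filaments, went from 90.5 ± 5.68 to 49.2 ± 1.10 RPKM (-0.88, adjusted p = 3.2e-11, edgeR). Zyx, which encodes the adhesion protein zyxin, fell by 0.54 (adjusted p = 0.00146, but 0.0631 without the second 0 nM library). Actn4, the most abundant gene of the list, fell by 0.24 (adjusted p = 0.00159, but 0.0938 without normalization factors). Fscn1 and Tln1, a bundling protein gene and the talin gene, were also among the 7.

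Of 16 tested genes for SRF, its cofactors and the signalling that feeds them, 2 were lower (12.5%) and 1 higher (6.25%) at 100 nM, with a median of -0.09. These shares were near the 13.3% and 10.1% of all genes and are no result about the list. Limk2, a kinase that slows filament turnover, fell by 0.91 (adjusted p = 1.7e-06, edgeR), and Rhoa, a small GTPase that promotes filament assembly, by 0.27 (adjusted p = 0.00496, but 0.117 without normalization factors). Diap3, a formin that builds filaments, stood at 19.3 ± 0.0639 RPKM at 0 nM and 23.2 ± 0.486 at 100 nM (SD, n = 2; log2 fold change 0.26, adjusted p = 0.038, edgeR), a call that was lost with DESeq2 (0.112) and without any one of the 4 libraries (0.102 to 0.173). Srf itself stood at 12.7 and 14.8 RPKM without dTAG13 and at 11.2 and 11.8 RPKM with 100 nM, the lowest of the 12 libraries. Its log2 fold change of -0.26 did not pass (standard error 0.104, adjusted p = 0.0728, edgeR), but it was called with TMM factors over all genes (0.0163), in the fit of all genes with a count (0.019) and without the first 0 nM library (0.0406). Mkl1, which encodes an MRTF cofactor, was called lower at 10 nM (-0.36, adjusted p = 0.0412, edgeR; -0.22, adjusted p = 0.198 at 100 nM), and that call was lost with DESeq2 (0.177), without normalization factors (0.154), in the pairwise fit (0.0618) and without any one of the 4 libraries (0.0943 to 0.153). Myocd, the gene of myocardin, had 0 to 6 counts per library.

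Of 15 tested genes for actin monomer binding and turnover 3 were lower (20%) and 2 higher (13.3%), with a median of -0.06, or 1 of 14 higher without Gsn. These shares too were near those of all genes. Cfl1, the cofilin gene and the most abundant of the list, fell by 0.20 (adjusted p = 0.0251), a call that was lost without normalization factors (0.295), without the second 0 nM library (0.212) and without either 100 nM library (0.152 and 0.0931). Wdr1 and Capza2, which act in filament disassembly and capping, fell by 0.47 and 0.38 (adjusted p = 1.3e-05 and 0.0009). Twf2, a twinfilin, rose from 25.4 ± 3.18 to 40.1 ± 2.48 RPKM (log2 fold change 0.66, adjusted p = 0.000128, edgeR). Gsn, the gelsolin gene, was counted 11 and 10 times without dTAG13, and with 100 nM 31 and 29 times. Its mean of 1.01 RPKM passed the filter only through the 100 nM libraries (0.881 without them), so that its values are given without a test. In the Arp2/3 complex, which starts filament branches, and its activators 1 of 13 was lower (7.69%) and 0 higher, against 13.3% and 10.1% of all genes. This was Arpc1b, which fell by 0.65 (adjusted p = 5.3e-05, edgeR). Arpc4, the most abundant of this list, had a log2 fold change of 0.11 (adjusted p = 0.211).

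Of 6 tested immediate early and MRTF target genes, 3 were lower (50%) and 1 higher (16.7%) at 100 nM, against 13.3% and 10.1% of all genes. Cyr61 and Ctgf, matricellular genes that also respond to YAP, fell by 0.99 and 0.56 (adjusted p = 5.1e-05 and 0.000395, edgeR), and Nr4a1, a nuclear receptor gene, by 0.47 (adjusted p = 0.0249). The call of Nr4a1 was lost with DESeq2 (0.0998), without the first 0 nM library (0.176) and without either 100 nM library (0.187 and 0.0513). Ier2, the most abundant, rose from 84.1 ± 6.74 to 122 ± 9.83 RPKM (log2 fold change 0.54, adjusted p = 2.4e-05, edgeR). Egr1, Egr2, Egr3, Thbs1, Ankrd1 and Fhl2 were under the filter with at most 21 counts per library.

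The list of desmin partners held 3 tested genes, the intermediate filament genes Nes and Vim and the linker gene Plec. At 100 nM 2 of them were called higher and 1 lower, where 10.1% of all genes were higher and 13.3% lower. Nes, the gene of nestin, which co-assembles with vimentin or desmin, rose from 58 and 90 counts at 0 nM to 191 and 220 at 100 nM (log2 fold change 1.45, standard error 0.16, adjusted p = 1.7e-07, edgeR). Vim, the vimentin gene, stood at 86.1 ± 0.266 RPKM at 0 nM and rose to 115 ± 1.92 at 100 nM (0.41, adjusted p = 3.9e-05). Plec, which encodes the linker plectin, fell by 0.67 (adjusted p = 7.8e-08). The desmin partners Synm and Cryab were under the filter.

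**Figure D4:**
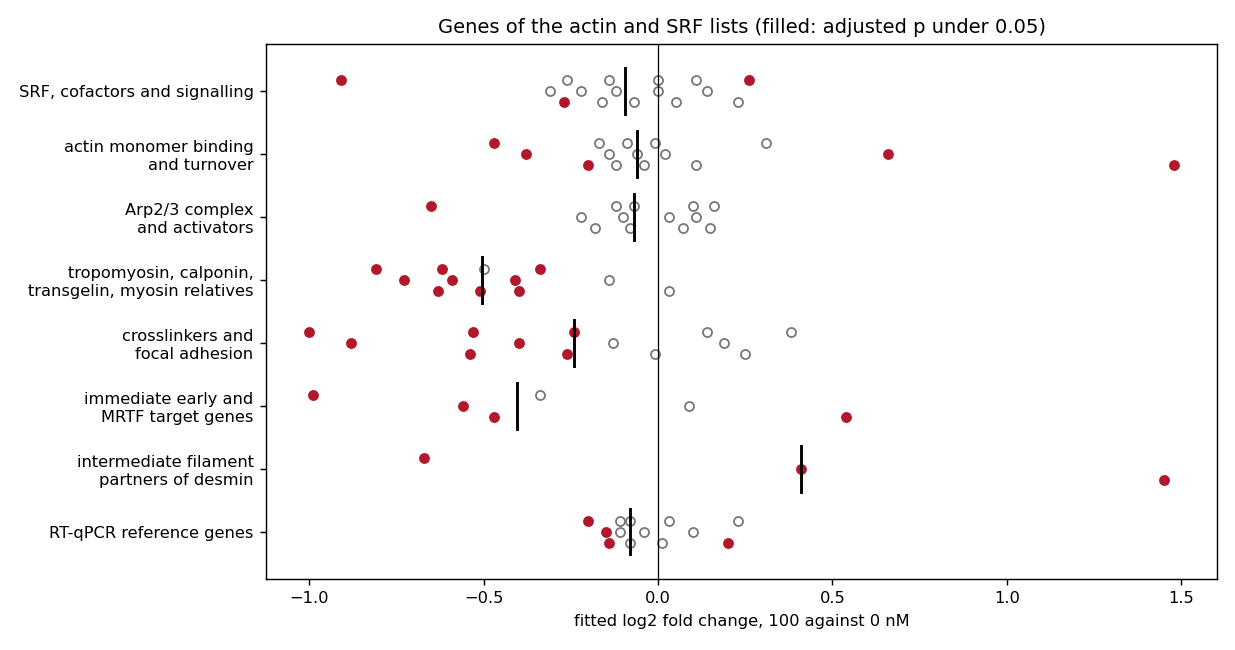
Fitted log2 fold change at 100 against 0 nM (horizontal axis) of each tested gene of 7 lists around actin and SRF and of 13 reference genes (rows), spread vertically only to separate the points. Filled points passed an adjusted p of 0.05 in edgeR and black bars are list medians. The filled point at 1.48 in the monomer binding row is Gsn, which passed the filter only through its 100 nM levels. Its filling is no test result, and the median of its list includes it. The medians of the tropomyosin, calponin, transgelin and myosin list and of the crosslinker list lie at -0.50 and -0.24, that of the reference genes at -0.08.

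Actb is widely used as a reference gene in RT-qPCR, and 13 other such genes were read beside it. At 100 nM 1 of the 13 was higher (Sdha) and 3 were lower (Ppia, Tubb5 and Tuba1b), with a median log2 fold change of -0.08. These were 7.69% and 23.1%, against 10.1% and 13.3% of all genes. Rplp0, the most abundant, had -0.11 (adjusted p = 0.182, edgeR), and it was called with a log2 fold change of -0.19 when TMM factors were taken over all genes (0.0137) and in the fit of all genes with a count (9.3e-05). The log2 fold changes of those called were 0.20 for Sdha, -0.14 for Ppia, -0.15 for Tubb5 and -0.20 for Tuba1b (adjusted p = 0.0397, 0.0443, 0.0243 and 0.0421). Each of these 4 calls was lost in at least 6 of 23 alternatives, and in particular without the second 0 nM library (0.281, 0.201, 0.153 and 0.236).

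The pattern of Actb over the 12 libraries was followed most closely by Morf4l2, Bcat1, Plekhh1, Pdha1 and Wnk1, with a Pearson r of log2(RPKM + 0.1) from 0.978 to 0.991. That of Des was followed most closely by Mrfap1, Ckap2, Phldb2, Bid and Sept1, with r from 0.949 to 0.967. These are the top genes of 11378 and are given as a description. For Des, with 1 added to the RPKM instead of 0.1, Phldb2 ranked 1, Bid 6 and Sept1 17. Among the 10 genes, Actb, Cnn2, Tpm1 and Des ran together with r from 0.88 to 0.94, while Actg1 had r from -0.61 to -0.65 with each of them. The libraries share depth and dose, so that genes that go down with dose are alike in this measure whatever else they share.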

How the data were processed

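Gene expression was measured by RNA-seq of total RNA in 12 libraries, 2 for each of 6 conditions. The authors deposited raw counts of read pairs per gene symbol, made per the file headers and the labels with Trim Galore, HISAT2 on mm10 and featureCounts (v.2.0.1). Pairs with both ends aligned were counted on exons, multi-mapped pairs were left out and strand was not used. The counts had no normalization. All 12 columns were used, and 0 were left out. Exon lengths came with the counts.

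R 4.3.3, edgeR 4.0.16, limma 3.58.1, DESeq2 1.42.0, Python 3.11.15 and Biopython 1.88 were used. RPKM was computed with TMM factors of 0.947 to 1.06, and the 11378 genes averaging 1 RPKM or more were tested by edgeR's quasi-likelihood test, with the 6 conditions in 1 fit and Benjamini-Hochberg adjustment over all of them. Calls had an adjusted p under 0.05. Each standard error given is the absolute log2 fold change divided by the square root of the F statistic of this test. A second fit over 23204 genes with at least 1 count gave the values of genes under the filter. Total counts had a median of 5956670, and the common biological coefficient of variation was 6.20%. Reads had no molecular identifiers.

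Groups came from the sample titles. The genes and lists were chosen with earlier results of these data known. All 10 genes are named, and from each list the gene with the highest mean RPKM and up to 4 with the largest change among those called at 100 nM. For Actb and Des the 5 genes of highest Pearson r are named. A gene that this rule would name is not reported here. Other genes are named only to complete a count or as overlapping neighbours, after their values were seen. Same-numbered libraries did not deviate together (15 pairs of conditions, r from -0.0948 to 0.0927), so that the numbers were not taken as pairs. Alternatives covered the test, the normalization, the filter, the libraries in the fit, a replicate block, a fold-change minimum and each library left out in turn. TMM factors over all genes were added after seeing the data. The steps were tested on simulated data. Sequence windows were read from RefSeq (GRCm38.p6) and GENCODE vM21.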

Additional observations from a re-analysis of the deposited data

How the results depend on the processing

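The counts of calls and the named log2 fold changes were recomputed in 23 alternatives. Of the 42 named genes, 23 kept their direction and their side of the threshold in all of them, among them Cnn2 and Tpm1 at 100 nM. The moves that were largest relative to the count among the 8 tested genes were as follows. Smaller moves, such as that of Tpm1 at 3 nM without normalization factors, are not all listed. At 1 nM, 1 became 0 with DESeq2, without normalization factors, with a replicate block and with a 1.5-fold minimum. At 3 nM, 3 became 1 with DESeq2. At 10 nM, 4 became 2 with DESeq2, which gave Tagln no adjusted p, 1 without normalization factors and 2 with the 1.5-fold minimum. At 100 nM, 5 became 2 with DESeq2 and 3 with the 1.5-fold minimum. From 10 to 100 nM, 1 became 0 with DESeq2, without normalization factors, in the pairwise fit and with the 1.5-fold minimum. From 0.3 to 3 nM, 1 became 2 with TMM factors over all genes and with all genes with a count. With a library left out, a lone library being assumed to vary like the other groups, these counts ran from 0 to 1 at 1 nM, 1 to 4 at 3 nM, 2 to 4 at 10 nM, 2 to 5 at 100 nM, 0 to 1 from 10 to 100 nM and 0 to 1 from 0.3 to 3 nM. Among the wider lists the 1.5-fold minimum left 0 lower genes at 1 nM, 1 higher and 2 lower at 3 nM, 1 higher and 7 lower at 10 nM, and 3 higher and 11 lower at 100 nM. DESeq2 and TMM factors over all genes left 1 higher at 3 nM, and no normalization factors left 7 lower there. With a library left out they ran from 0 to 4 lower at 1 nM, 0 to 2 higher and 8 to 16 lower at 3 nM, and 2 to 5 higher at 10 nM. The sign turned for Acta2 without the first 0 nM library (0.15, with a range from -1.56 to 0.15 over the omitted libraries), and for Myl9 without normalization factors (0.01), without the first 0 nM library (0.15) and without the first 100 nM library (0.30, with a range from -0.49 to 0.30). The cause was not tested. The replicate block took the call of Cnn2 at 1 nM (adjusted p = 0.0564), of Vcl at 10 nM (0.0508) and of Ppia at 100 nM (0.0505) in edgeR and changed no other call of the 8 tested genes or of the named genes at 100 nM. The median of all genes at 100 nM moved by -0.08 to 0.09 (log2) across scalings and filters. Depth limits Acta2, Cnn1, Tagln and Des, which had 48 counts or fewer per library.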
